A study of Homo sapiens with 9 samples.

Results

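The HOXB genes of the homeobox cluster on chromosome 17 were followed in PANC-1 cells, an established line grown from a carcinoma of the human pancreas, after exposure to BRD7552. The 9 genes HOXB2, HOXB3, HOXB4, HOXB5, HOXB6, HOXB7, HOXB8, HOXB9 and HOXB13, of 19775 genes with a probe set of their own, were taken with every probe set that names them and no other gene, which gave 17 of 54613 probe sets. A probe set is a group of short probes on the array that together report 1 transcript region. The compound BRD7552 is a small molecule, applied at 5 uM because, as the submitters state, that was the lowest dose with the strongest induction of the pancreatic homeobox gene PDX1. Groups of 3 arrays each held RNA of cells after 6 h of the compound, after 72 h of it, and of cells given its solvent DMSO. How long the DMSO cells were exposed is not stated. The same DMSO arrays served both times, so effects of the compound and of time in culture cannot be told apart. All groups are the same unmodified cell line, and the labels do not say whether replicates came from separate cultures, so errors measure only the spread between these samples.

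HOX genes encode homeodomain transcription factors that set the position of cells along the body axis. Vertebrates carry them in clusters, and in the embryo the genes of a cluster are switched on in the order in which they lie, with HOXB1 at the early, anterior end and HOXB13 at the late, posterior end. Polycomb complexes keep silent HOX genes closed, trithorax complexes keep active ones open, and retinoic acid and caudal factors set their start. HOX proteins bind DNA together with cofactors of the TALE class. In adult epithelium and in carcinoma lines many HOXB genes remain expressed, and the level of each differs from line to line.

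In the RefSeq gene order on chromosome 17 the 9 genes follow each other by number, with the genes PRAC1 and PRAC2 between HOXB9 and HOXB13. The cluster also encodes microRNAs that are known regulators of HOX messages. MIR10A lies between HOXB4 and HOXB5, and MIR196A1, whose mature product is known to direct cleavage of HOXB8 messenger RNA, lies between HOXB9 and HOXB13. Their mature sequences are given to place these regulators in the cluster, 5′ to 3′, with the seed (bases 2 to 8) in capitals. They come from RefSeq on GRCh38.p14, minus strand, at chr17:48579904-48579926 and chr17:48632532-48632553, and their levels were not analysed here.
hsa-miR-10a-5p: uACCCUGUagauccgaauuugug
hsa-miR-196a-5p: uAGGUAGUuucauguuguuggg
The seeds of the pair differ. No sequence of a HOXB gene itself was used.

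Signal is given on the linear scale of the deposited table and changes as log2 differences of group means, with the standard error (SE) of a limma fit to all 9 arrays. A probe set is said to be called at a limma adjusted p below 0.05 over all 54613 probe sets. The HOXB genes were chosen by their log2 signal over DMSO at 6 h and 72 h in these same arrays, so their changes and calls are a description, with no p-value, and support nothing further. Of the 17 probe sets, 15 had a mean above the median probe set of the table (17.8), and all 9 genes had at least 1 such probe set. The dimmer 2 were a second probe set of HOXB6 (205365_at) and of HOXB8 (221278_at). The suffix _s_at marks probes shared by several transcripts, so near-identical HOX sequences could add to those signals, which was not tested. Signals of different probe sets are on scales of their own, and levels of different genes were not compared. In such bulk samples a change in the number of cells with a transcript and a change in its level per cell cannot be told apart.

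After 6 h of BRD7552 the largest changes in the cluster were those of HOXB8, HOXB6, HOXB5 and HOXB3. HOXB8 was 1.62-fold of DMSO, HOXB6 1.49-fold, HOXB3 1.32-fold and HOXB5 1.28-fold by their brightest probe sets. Limma called 3 of the 17 probe sets at 6 h, those of HOXB3, HOXB6 and HOXB8, each higher, while 0.0732% of all probe sets were called and 0.0677% were called higher. After 72 h it called 9, of which 8 were higher and 1, that of HOXB2, was lower, with 7.45% called among all probe sets, 2.06% higher and 5.38% lower. Among probe sets above the median signal the shares called were 0.146% at 6 h and 14.5% at 72 h. The median log2 change of the 17 probe sets was 0.20 at 6 h and 0.27 at 72 h, beside 0.0016 and -0.028 over all probe sets. Both comparisons used the same 3 DMSO arrays. At 6 h the count of 3 was 1 without DMSO replicate 1 and 1 with each array centred on its median, and limma without its mean-variance trend called 0 of the 17, of which 7 had an unadjusted p below 0.05 in the fit with the trend, beside 2.4% of all probe sets. These counts are read as a description too.

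**Figure D1:**
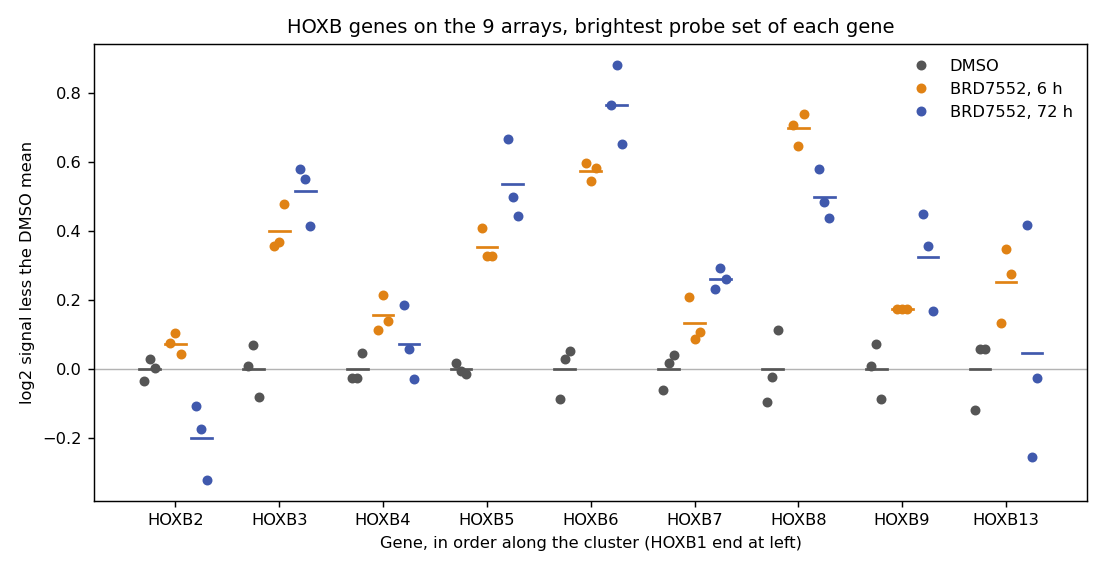
Log2 signal less the DMSO mean (vertical axis) of the brightest probe set of each of the 9 genes, in cluster order, with 1 point per array and a line at each group mean. HOXB3, HOXB5, HOXB6 and HOXB8 stood clear of DMSO on all 6 treated arrays, and HOXB2 lay above DMSO at 6 h and below it at 72 h.

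HOXB8, a factor that keeps myeloid progenitors dividing when it is active in blood cells, was highest at 6 h. Its brightest probe set (229667_s_at) read 236, 248 and 273 on the DMSO arrays, 412, 395 and 421 at 6 h, and 377, 352 and 342 at 72 h. The 3 groups did not overlap, and every 72 h array lay between DMSO and 6 h. The log2 change was 0.70 ± 0.074 (SE, n = 3 per group) at 6 h and 0.50 ± 0.074 at 72 h, a difference of -0.20 ± 0.074 between the times that was not called. Among 12678 genes above the median signal the change at 6 h was the 11th highest and that at 72 h the 214th. The other HOXB8 probe set was dim, at a mean of 12.3 ± 1.09 (SD, n = 3) in DMSO, with changes of 0.21 ± 0.19 and 0.11 ± 0.19 and overlapping groups.

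HOXB6, expressed in developing lung and gut, was already higher at 6 h and had the largest change of the cluster at 72 h. Probe set 205366_s_at read 354, 384 and 389.5 in DMSO, 568, 548 and 562 at 6 h, and 638, 692 and 590.3 at 72 h. Its groups did not overlap in any of the 3 pairings. The log2 change was 0.58 ± 0.069 at 6 h and 0.77 ± 0.069 at 72 h (1.70-fold), and the step of 0.19 ± 0.069 between the times was not called. At 6 h the call was lost without DMSO replicate 1 and with median centring. The second HOXB6 probe set, 205365_at, read 10.9 to 14.8 over all 9 arrays with changes of -0.057 ± 0.13 and -0.0071 ± 0.13, so it did not show the difference seen by the bright one.

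HOXB5, which takes part in forming the nerve cells of the gut, was measured by a pair of bright probe sets with similar changes. Probe set 205601_s_at read 337, 332 and 329 in DMSO, 442, 418 and 418 at 6 h, and 528, 469.96 and 453 at 72 h. Every 72 h array was above every 6 h array, and these were above DMSO. The log2 change was 0.36 ± 0.069 at 6 h, not called, and 0.54 ± 0.069 at 72 h. The probe set 205600_x_at, whose suffix marks probes that may bind unrelated transcripts, gave 0.41 ± 0.078, not called, and 0.51 ± 0.078, called.

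HOXB3, a factor of hindbrain patterning, was higher at both times. Probe set 228904_at read 686, 716 and 644 in DMSO, 873, 880.4 and 949.9 at 6 h, and 1019.96, 999 and 909.7 at 72 h. Both treated groups lay above DMSO, and they overlapped each other. The log2 change was 0.40 ± 0.062 at 6 h and 0.52 ± 0.062 at 72 h (1.43-fold). The 6 h call was kept under 9 of 19 alternatives. It was lost with median centring, without a variance trend, with the replicate block, without any 1 of the DMSO or 6 h arrays and without 72 h replicate 2, which enters through the shared spread, while the 72 h call was kept under all 19. The second probe set, 208414_s_at, of low signal but above the median, read 19.5 to 32.7 over the 9 arrays, with changes of 0.20 ± 0.17 and 0.28 ± 0.17 and overlapping groups.

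**Figure D2:**
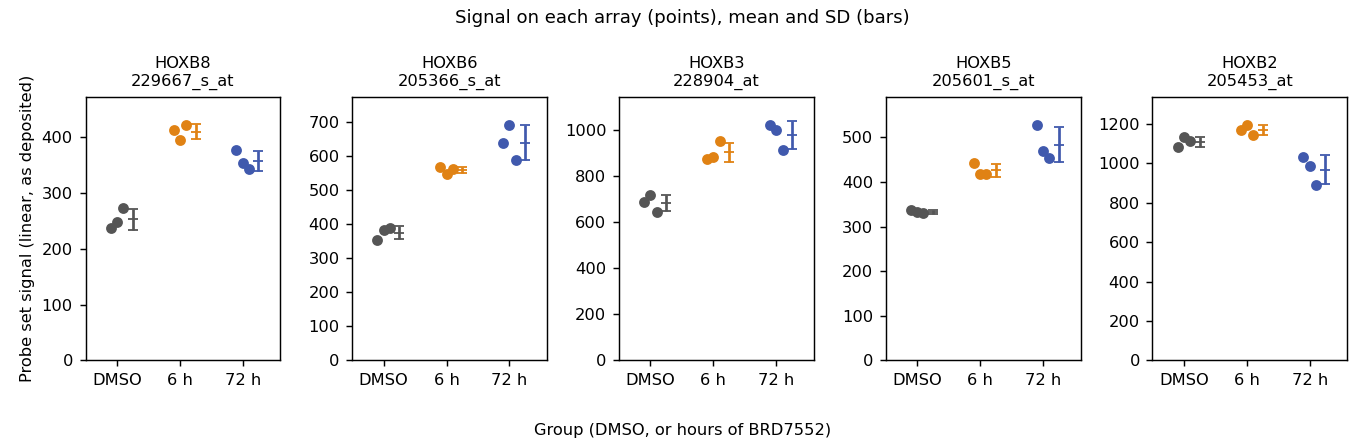
Probe set signal on the linear scale of the deposited table (vertical axes start at 0) for HOXB8, HOXB6, HOXB3, HOXB5 and HOXB2, 1 point per array, with bars for the mean and SD of 3 arrays. HOXB8 was highest at 6 h, HOXB6, HOXB3 and HOXB5 had their highest means at 72 h, and HOXB2 had its lowest mean at 72 h.

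HOXB7 and HOXB9 differed from DMSO by less, were called at 72 h only, and were not called between the times. HOXB7, often raised in carcinomas, read 1142, 1206 and 1228 by probe set 204779_s_at in DMSO, 1379, 1266 and 1285 at 6 h, and 1401, 1459.7 and 1428 at 72 h. These groups did not overlap, and the log2 changes were 0.14 ± 0.048 at 6 h, not called, and 0.26 ± 0.048 at 72 h, called. Probe set 216973_s_at gave 0.14 ± 0.044 and 0.27 ± 0.044 with the same calls, while 204778_x_at gave 0.089 ± 0.074 and 0.10 ± 0.074 and was called at neither time. HOXB9, which takes part in patterning the ribs and the mammary gland, read 258, 270.02 and 242 by probe set 226461_at in DMSO, 289.7 on each of the 3 arrays at 6 h, and 350.3, 329 and 289 at 72 h. The SD at 6 h was thus 0, a tie of the kind found in 59.3% of all probe sets. The pooled SE takes in this SD of 0, so it may be too small as well. The log2 changes of HOXB9 were 0.18 ± 0.082, not called, and 0.33 ± 0.082, called. This 72 h call was lost without DMSO replicate 1, DMSO replicate 3 or 72 h replicate 2 and with median centring. Without a variance trend 5 HOXB probe sets were called at 72 h, with HOXB3, HOXB5, HOXB6 and HOXB8 among them. The 72 h calls of HOXB7 and HOXB9 were therefore not all kept in that setting. The other HOXB9 probe set, 216417_x_at, gave 0.22 ± 0.16 and 0.39 ± 0.16 and was called at neither time.

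HOXB2, a factor of the hindbrain and of facial nerve formation, was the 1 gene of the cluster called lower. It read 1083, 1133 and 1112 in DMSO, 1168, 1194 and 1143 at 6 h, and 1030.1, 984 and 888 at 72 h. The 6 h arrays lay just above DMSO (log2 0.075 ± 0.056, not called) and the 72 h arrays below both other groups (log2 -0.20 ± 0.056 against DMSO and -0.27 ± 0.056 against 6 h, both called). The call against DMSO was kept under 6 of 19 alternatives. The settings that lost it included leaving out any 1 of the DMSO or 6 h arrays, or 72 h replicate 2 or 3. Median centring, under which the change was -0.16, was another of them. HOXB2 was also the 1 of 17 probe sets called between 72 h and 6 h. Of all probe sets 6.46% were called there, with 4.85% lower, and 12.6% of those above the median signal. A count of 1 of 17 does not stand out from these shares. Against DMSO at 72 h the change of HOXB2 ranked 9313th from the highest among 12678 genes above the median signal.

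HOXB4 and HOXB13, which lie in the middle and at the posterior end of the cluster, were called at neither time. HOXB4, known for expanding blood stem cells, read 282, 282 and 296 in DMSO, 310.2, 332 and 316 at 6 h, and 326, 299 and 281 at 72 h. Its 6 h arrays did not overlap DMSO and its 72 h arrays did, with log2 changes of 0.16 ± 0.074 and 0.073 ± 0.074. HOXB13, a marker of prostate epithelium, was measured by probe sets of low signal, with DMSO means of 35.6 ± 2.49 for 209844_at and 31.1 ± 4.64 for 230105_at (SD, n = 3). The first gave 0.25 ± 0.16 and 0.047 ± 0.16, and the second -0.083 ± 0.19 and -0.26 ± 0.19, so the pair had opposite signs at 6 h, and the difference between them was not tested. The 72 h arrays of 209844_at ran from 29.8 to 47.6, across the DMSO values of 32.8 to 37.1.

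**Figure D3:**
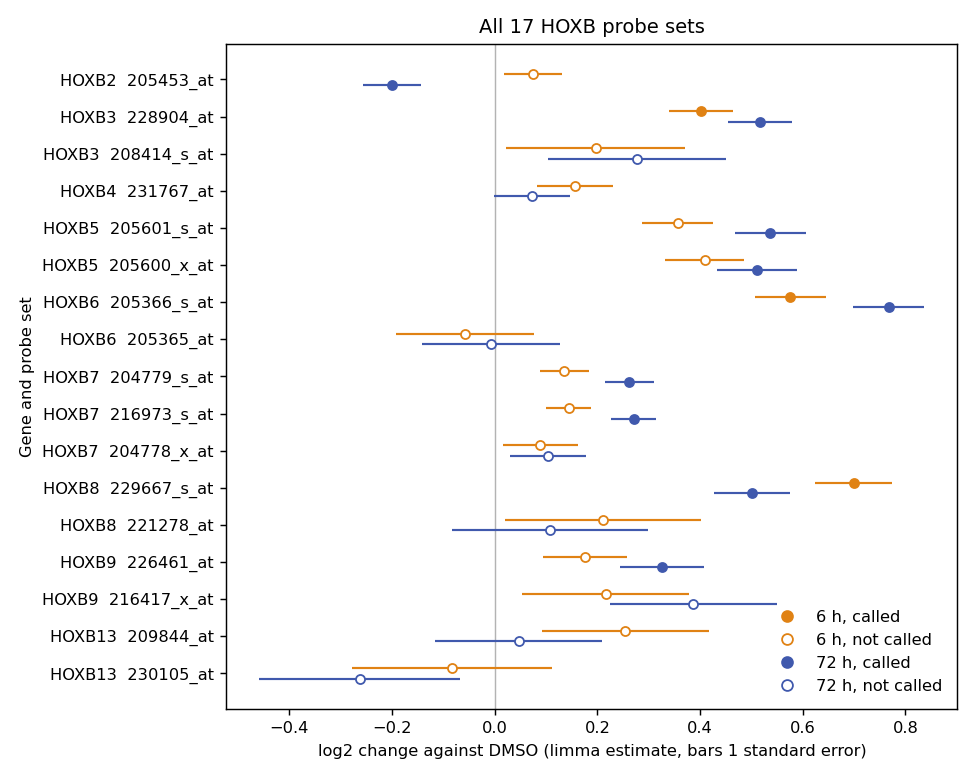
Log2 change against DMSO (horizontal axis) of all 17 HOXB probe sets at 6 h and 72 h, with bars of 1 SE and filled points where limma called the change. The brightest probe sets of HOXB3, HOXB5, HOXB6 and HOXB8 lay between 0.36 and 0.77, the second one of HOXB3 lay at 0.20 and 0.28 and was not called, the dim second one of HOXB6 lay near 0, and HOXB2 was the called fall at 72 h.

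The size of change did not follow the order along the cluster. Over the 9 genes, by their brightest probe sets, Spearman's rank correlation between position and log2 change was 0.25 at 6 h, 0 at 72 h and 0.10 for the step between the times. These genes share the arrays and a locus, and the values are given as a description. Large changes stood beside small ones, since HOXB4 (0.073 at 72 h) lies between HOXB3 (0.52) and HOXB5 (0.54), and HOXB7 (0.26) between HOXB6 (0.77) and HOXB8 (0.50). The genes called at 6 h were the anterior gene HOXB3 and the more posterior genes HOXB6 and HOXB8. By its brightest probe set every gene lay wholly above DMSO at 6 h, and only 6 h and 72 h were sampled. An order in the time of change could therefore not be judged. In 11 of the 17 probe sets the 6 h arrays lay wholly above or below DMSO, beside 8.35% of all probe sets and 10.9% of those above the median signal. For the 72 h arrays this held in 10, beside 19.8% and 32.1%, and for the times against each other in 6, beside 17.9% and 29% of those above the median.

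Values were also taken for transcripts inside the cluster that are no members and for the genes beside it. HOXB1, the anterior neighbour of HOXB2, read 17.6, 13.3 and 11.2 in DMSO by its brighter probe set, below the median of the table, with changes of -0.085 ± 0.23 and 0.14 ± 0.23. HOXB-AS1 and PRAC1 were called at neither time. HOXB-AS3, a long non-coding transcript of the cluster's other strand, was measured by 5 probe sets, of which 0 were called at either time. Its probe set 239791_at read 33.3, 26.8 and 27.9 in DMSO, 43.4, 34.7 and 45.9 at 6 h, and 39.1, 25.5 and 25.5 at 72 h (log2 0.49 ± 0.18 and 0.0089 ± 0.18). It was above DMSO on each 6 h array, and was singled out after its values were seen. Of the 5 genes next to HOXB1, called 0 times at 6 h, COPZ2, which encodes a coat protein of transport vesicles, was lower at 72 h (-0.46 ± 0.11), a call lost without DMSO replicate 1, DMSO replicate 3 or 72 h replicate 2 and with quantile or cyclic loess normalization. Of the 5 next to HOXB13, also called 0 times at 6 h, the autophagy receptor gene CALCOCO2 was higher at 72 h (0.21 ± 0.043), a call lost without DMSO replicate 1 and with median centring. These values are of the brightest probe set of each gene. Of the others, UBE2Z 222395_s_at was also called higher at 72 h (0.28 ± 0.075) while the brightest of UBE2Z stood at -0.012 ± 0.052, and CALCOCO2 235076_at stood at -0.027 ± 0.096. By brightest probe set, none of these 10 genes had an unadjusted limma p below 0.05 at 6 h, beside 2.4% of all probe sets. Of all genes by brightest probe set, 0.142% were called at 6 h and 11.8% at 72 h. With so few flanking genes, their counts cannot be told from these shares. The difference between the cluster and its flanks was not tested.

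**Figure D4:**
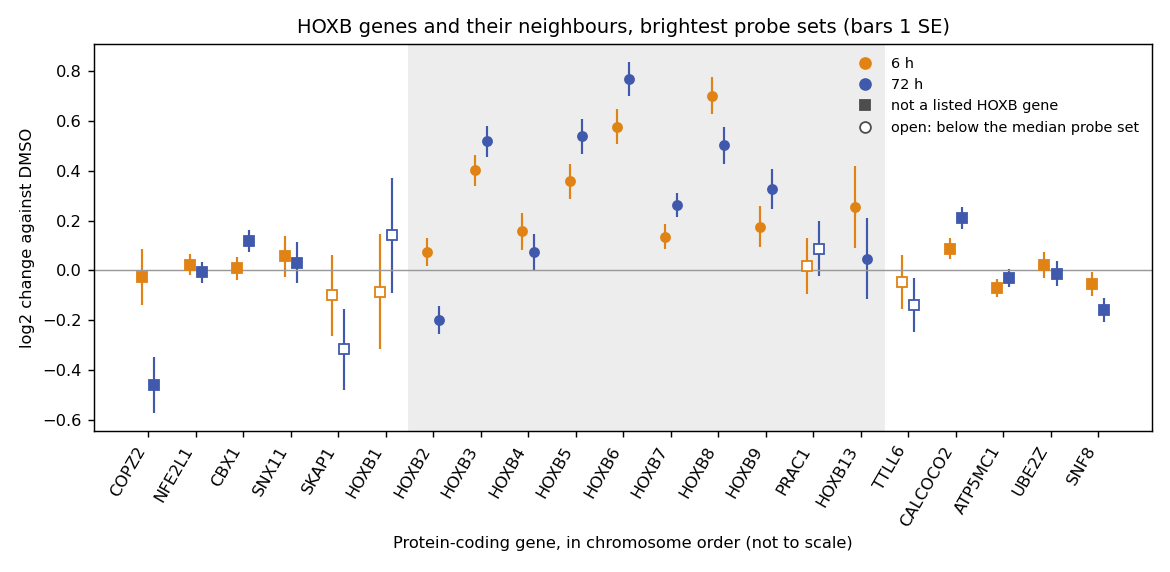
Log2 change against DMSO (vertical axis, bars 1 SE) at 6 h and 72 h for the HOXB genes (circles, grey band) and neighbouring protein-coding genes (squares) in chromosome order, not to scale. Open symbols lie below the median probe set signal. The 5 genes on either side lay between -0.10 and 0.087 at 6 h, and HOXB2, at 0.075, lay within that range. HOXB4, HOXB7, HOXB9 and HOXB13 lay between 0.14 and 0.25, and HOXB3, HOXB5, HOXB6 and HOXB8, the largest changes, at 0.36 or above.

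The HOXC cluster, on another chromosome, held the nearest counterparts. Of 9 measured HOXC genes, 3 rose at 6 h (HOXC6, HOXC9 and HOXC10) and 6 at 72 h, with median log2 changes of 0.31 and 0.45, beside -0.00098 and -0.033 over all genes. By brightest probe sets 0.142% of all genes were called at 6 h and 11.8% at 72 h. For paralogue 6 the changes were 0.58 and 0.77 for HOXB6 and 0.60 ± 0.038 and 0.84 ± 0.038 for HOXC6. For paralogue 9 they were 0.18 and 0.33 for HOXB9 and 0.80 ± 0.093 and 1.06 ± 0.093 for HOXC9. For paralogue 4 they were 0.16 and 0.073 for HOXB4 and 0.46 ± 0.097 and 1.03 ± 0.097 for HOXC4. HOXB8 and HOXC8 stood at 0.70 and 0.50 against 0.23 ± 0.17 and 0.28 ± 0.17, where HOXC8, named as the counterpart, was called at neither time. HOXC8 was of low signal, with a DMSO mean of 23.5. HOXC5 and HOXC13 are also named as counterparts. HOXB5 stood at 0.36 and 0.54 against 0.026 ± 0.16 and 0.16 ± 0.16 for HOXC5, called at neither time. HOXB13 stood at 0.25 and 0.047 against 0.15 ± 0.078 and 0.36 ± 0.078 for HOXC13, called at 72 h. The differences between the clusters were not tested. Of 8 measured HOXD genes, of which 1 was above the median signal, and of HOXA2, the 1 HOXA gene analysed here, 0 were called at either time. At an unadjusted limma p below 0.05 there were also 0, beside 2.4% of all probe sets at 6 h. The rest of the HOXA cluster was not measured here, and so few bright genes say little of either cluster.

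**Figure D5:**
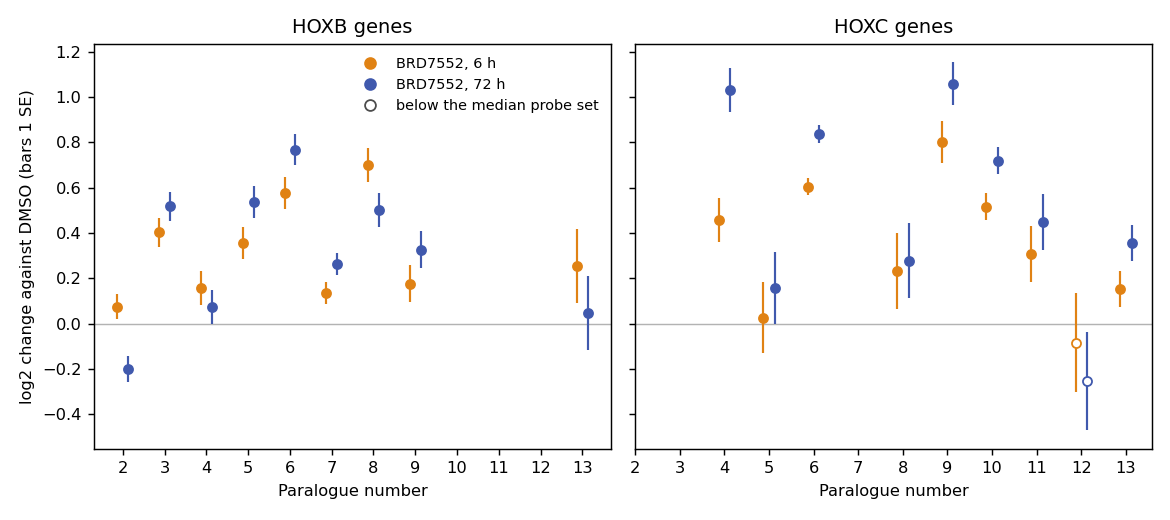
Log2 change against DMSO (vertical axis, bars 1 SE) at 6 h and 72 h of HOXB genes (left) and HOXC genes (right) by paralogue number, with open points below the median probe set signal. Paralogue 6 had similar changes in both clusters, whereas HOXC4 and HOXC9 passed 1 log2 unit at 72 h and HOXB4 and HOXB9 stayed below 0.35.

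Among genes known to act on HOX clusters or with HOX proteins, 9 of the 53 measured were called at 72 h (17%) and 0 at 6 h, beside 11.8% and 0.142% of all genes by brightest probe set and 14.5% and 0.146% of probe sets above the median signal. At 6 h limma called 0 of 8 TALE cofactors, 0 of 17 Polycomb genes, 0 of 10 trithorax and H3K27 demethylase genes, 0 of 15 retinoid genes and 0 of 3 caudal genes. In each of these lists 0 had an unadjusted limma p below 0.05, beside 2.4% of all probe sets. Counts of 0 in lists this short do not stand out from these shares. At 72 h PBX3, a TALE partner of HOX proteins, fell (-0.46 ± 0.058), and the other 7 TALE genes did not pass. Of the Polycomb genes 5 fell and 12 did not pass, with a list median of -0.16. The Polycomb ring finger genes PCGF5 and PCGF6 stood at -0.58 ± 0.11 and -0.32 ± 0.068, and PHC1, another gene of the list, at -0.33 ± 0.088. The calls of PCGF6 and PHC1 were lost without DMSO replicate 1 and with median centring. The call of PHC1 was also lost without either of the other DMSO arrays, any 1 of the 6 h arrays or 72 h replicate 3, and with quantile or cyclic loess normalization. DPY30, a subunit of the complexes that methylate H3K4, rose by 0.16 ± 0.042 as the 1 of 10 trithorax and demethylase genes, a call lost without any 1 DMSO array and without 72 h replicate 2 or 3. In the retinoid list 2 fell and 13 did not pass. These were DHRS3, which reduces retinal (-0.71 ± 0.14), and CYP26B1, which breaks down retinoic acid (-0.57 ± 0.093). None of the 3 caudal genes passed. At 72 h falls were the more frequent calls on the array as a whole (2940 against 1127 rises). Their share of the calls was 57% after quantile normalization and 55.7% after cyclic loess.

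Genes with the most similar profiles were sought by Euclidean distance over the 9 arrays of log2 signal less the DMSO mean, among 12669 other genes above the median signal. For HOXB8, chosen for its change at 6 h, the nearest was DDIT3, which encodes the stress factor CHOP, at a distance of 0.298 (log2 changes 0.72 and 0.38). The next were IDI1 (0.51 and 0.43), TSC22D3 (0.51 and 0.50), ZNF503 (0.51 and 0.62) and ATOSA (0.42 and 0.55), at distances of 0.383 to 0.51. For HOXB6, chosen for its change at 72 h, the nearest was HOXC6 at 0.242, followed by MIDN (0.48 and 0.75), HOXC10 (0.52 and 0.72), RIPOR3 (0.48 and 0.85) and ZBTB46 (0.41 and 0.74) at 0.319 to 0.374.

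The labelled cell type was checked against markers. The 6 markers of a duct-like carcinoma line (KRT7, KRT8, KRT18, KRT19, EPCAM and VIM) were all above the median signal, with a summed signal of 49470 to 50420 in DMSO, 49560 to 49850 at 6 h and 42730 to 44170 at 72 h, and KRT7, KRT8 and KRT18 were called lower at 72 h. Of 12 measured leukocyte, endothelial, acinar and islet markers, PECAM1 and CELA3A were above the median probe set signal, by little. The leukocyte markers summed to 31.4 to 34.4 in DMSO, 25.8 to 30.4 at 6 h and 26.2 to 31.9 at 72 h, and the endothelial ones to 37.7 to 47.1, 39.1 to 42.1 and 41.3 to 56.0. For the acinar markers the sums were 26.97 to 32.3, 27.5 to 29.2 and 21.2 to 30.1, and for the islet markers 35.9 to 38.1, 36.9 to 39.9 and 32.1 to 39.6. The upper quartile of signal was 97.2 and 99.5 on 72 h replicates 2 and 3, against 112 to 119 on the other 7 arrays. The median SD of the bright HOXB probe sets within a group was 0.075 log2 units in DMSO, 0.0558 at 6 h and 0.11 at 72 h. The part of these array differences in the 72 h changes was not tested.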

How the data were processed

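Biotinylated cRNA from total RNA of 9 samples was read on Affymetrix arrays with 54675 probe sets. Per the labels and the file itself, the authors deposited the intensity of each probe set in a single table, as linear values from 4.54 to 25052. The submitters' processing notes name MAS5, without a version, and nothing in the sources used here says what followed it. In 59.3% of probe sets, 6 of the 17 HOXB ones among them, 2 or more arrays hold exactly the same value. MAS5 alone seldom gives such ties, so how the values were summarised is uncertain and some SDs may be too small. The number of arrays limits the precision. Columns were matched to samples by name, and groups and replicates came from the titles.

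The 62 control probe sets were left out. Probe sets took the gene symbol of the platform's table, updated by gene identifier. 41091 had 1 symbol, of which 41037 matched a current record, and 1801 with several symbols were not named. Values were log2 transformed as deposited, with no pseudocount, filter or further normalization. All 9 arrays entered 1 model per probe set in limma 3.58.1 under R 4.3.3 (lmFit, then eBayes with trend), with 6 residual degrees of freedom, and p-values were adjusted by Benjamini-Hochberg over 54613 probe sets, tested on simulated data first. Genes of lists are represented by their brightest probe set.

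The members and the gene lists were chosen with earlier results of these data known. The text names every HOXB probe set, flanking genes, up to 3 called genes per list and comparison with the largest change, and the 5 genes nearest in profile to HOXB8 and HOXB6. Exceptions are marked, and unnamed list members were counted only. Alternatives were 3 other scalings, a pseudocount of 16, a filter on low values, 1 probe set per gene, no variance trend, only the groups compared, array weights, a replicate block and leaving out each array.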

Additional observations from a re-analysis of the deposited data

Results flagged for a closer look

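The results here were picked out because the change at 72 h differed from the change at 6 h in the limma fit, as the difference between the times was called. Among the HOXB genes this was HOXB2 (probe set 205453_at), at -0.27 ± 0.056 (SE) between 72 h and 6 h, from 0.075 against DMSO at 6 h to -0.20 at 72 h. It was chosen with these comparisons in view and is a description. The call was lost with median centring, without a variance trend and without 6 h replicate 2. Among the other named genes, PBX3 stood at -0.50 between the times, PCGF5 at -0.60, PHC1 at -0.41, PCGF6 at -0.35, DHRS3 at -0.58, CYP26B1 at -0.38 and COPZ2 at -0.44, while HOXC6 stood at 0.23 and HOXC4 at 0.57. The calls of PBX3, PCGF5 and HOXC4 were kept under each alternative run.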

How the results depend on the processing

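At 72 h the number of HOXB probe sets called (9 of 17) ran from 7 to 10 under the alternatives that kept it within 1.5 times, and was 5 without a variance trend. HOXB3, HOXB5, HOXB6 and HOXB8 were called there under each alternative run on them. No called change of a HOXB probe set changed sign. At 6 h the count of 3 was 1 with median centring, 0 without a variance trend and 5 with array weights, while the median change of the HOXB probe sets was 0.25 with 1 probe set per gene. The count between the times (1) was 0 with median centring and without a variance trend, 2 with quantile normalization and with 1 probe set per gene, and 3 with cyclic loess. Over all probe sets, 40, 4067 and 3528 were called at 6 h, at 72 h and between the times. These counts were 13, 2100 and 1639 with median centring, and 6, 2303 and 1764 without a variance trend. Array weights gave 104 at 6 h, and fitting only the groups compared gave 1757 between the times. The share of falls at 72 h was 57% after quantile normalization and 55.7% after cyclic loess. The rank correlation with position was 0.05 at 6 h with probe sets averaged per gene and 0.183 at 72 h with quantile normalization and with cyclic loess. The cause was not tested.

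With 1 array left out, the HOXB count ran from 1 to 4 at 6 h, 7 to 9 at 72 h and 0 to 1 between the times, and the count over all probe sets from 19 to 47, 2124 to 6672 and 1816 to 6270. The median HOXB change ran from 0.155 to 0.196, 0.25 to 0.288 and -0.0103 to 0.113, and the rank correlation from 0.133 to 0.3, -0.0667 to 0.183 and -0.0667 to 0.267. The lowest count at 6 h came without DMSO replicate 1, the highest at 72 h over all probe sets without 72 h replicate 1.

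The deviations of same-numbered arrays from their group means had correlations of -0.258 to 0.201 over 9 pairs. With 3 arrays per group these values cannot settle whether the numbers mark a pairing. With the replicate block 2, 8 and 1 HOXB probe sets and 28, 3344 and 2808 of all probe sets were called. Dim probe sets, such as the second ones of HOXB6 and HOXB8, limit what can be seen of their transcripts.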
